A study of Homo sapiens with 11 samples.

Results

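The 7 genes described here encode protein arginine methyltransferases: PRMT1, PRMT2, PRMT3, CARM1 (also called PRMT4), PRMT5, PRMT6 and PRMT7. They were taken by name, with earlier results of these data known, from the 31325 gene symbols of the array data, where each has 1 value per array. The question is how the response of PRMT6 compares with that of its family. Their mRNA was measured after transfection of miR-365a-3p, or of a control miRNA, in 2 human cancer lines, MDA-MB-231 from breast and SKOV3 from ovary. The labels name the ovarian line SKOV3, while the study's methods for the arrays name its subline SKOV3.ip1. There were 3 arrays of MDA-MB-231 cells with miR-365a-3p, 3 of MDA-MB-231 cells with control miRNA, 3 of SKOV3 cells with miR-365a-3p and 2 of SKOV3 cells with control miRNA. The labels give 48 h of treatment for all 11 arrays, while the series' design text gives a shorter time. All groups, controls included, were transfected, and no untransfected cells were among them. Nothing in the labels says whether the replicates were separate cultures, so that p-values measure the spread between these arrays, which may be technical.

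Arginine methyltransferases move methyl groups from S-adenosylmethionine onto arginines of histones, splicing factors and other RNA-binding proteins. Type I enzymes (PRMT1, PRMT2, PRMT3, CARM1 and PRMT6) place both methyl groups of an asymmetric dimethylarginine on the same nitrogen, the type II enzyme PRMT5 makes symmetric dimethylarginine, and PRMT7 makes monomethylarginine. On chromatin, marks of CARM1 and PRMT1 are known mostly from active genes, while those of PRMT5 and PRMT6 are known mostly from repressed ones.

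The transfected miRNA is shown because every comparison rests on it. Its mature sequence from RefSeq is printed with the seed, bases 2 to 8, in capitals, and the hairpin it is cut from with the mature strand in capitals. The mature strand lies at chr16:14309340-14309361 and the hairpin at chr16:14309285-14309371, both on the + strand of GRCh38.p14, in the miRNA gene MIR365A.
hsa-miR-365a-3p: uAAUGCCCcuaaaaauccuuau
MIR365A hairpin: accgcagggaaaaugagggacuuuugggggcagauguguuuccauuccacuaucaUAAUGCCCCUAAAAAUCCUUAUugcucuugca
A second gene on chromosome 17, MIR365B, gives the identical mature sequence as hsa-miR-365b-3p. Of 2370 mature human miRNA names in the RefSeq table, 2 carry this seed, namely this pair. A site that pairs with the whole seed reads GGGCAUU, and the members' transcripts were not searched for it here.

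Values are log2 signals, quantile normalized across the 11 arrays so that all arrays share 1 distribution, and folds are given as if the deposited scale were a plain log2 of signal, which the sources used here do not state. Signals of different genes come from different probes, so that only the same gene is compared between groups. In bulk RNA of this kind, fewer expressing cells and less mRNA per cell cannot be told apart. The markers of the cell lines were as known for these lines. ERBB2, amplified in SKOV3 cells, had a mean signal of 10.86 in SKOV3 and 7.61 in MDA-MB-231 controls, and PAX8, an ovarian lineage factor, 8.18 and 7.40. CDH1 (7.27) and ESR1 (7.28) were at the dim end in MDA-MB-231 controls, and VIM was bright in both lines, at 13.79 in MDA-MB-231 and 13.70 in SKOV3 controls.

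With miR-365a-3p, CARM1 mRNA fell to ratios of 0.258 and 0.292 of its control signal in the 2 cell lines, while PRMT3, PRMT5, PRMT2 and PRMT6 rose by 1.32-fold to 2.01-fold in both. In MDA-MB-231 cells 5 of the 7 genes rose and 1 fell (limma, adjusted p under 0.05 over all 31325 genes), against a background of 14.4% of all genes risen and 11.7% fallen. In SKOV3 cells 4 rose and 1 fell, against 7.25% of all genes risen and 7.11% fallen. The median change of the 7 genes was 0.44 on the log2 scale in MDA-MB-231 and 0.41 in SKOV3 cells, and that of all genes was 0.0064 and 0.0066. PRMT1 was called in MDA-MB-231 but not in SKOV3 cells, and PRMT7 in neither line. The calls for PRMT2 and PRMT6, and that for PRMT5 in SKOV3 cells, depend on how the arrays are scaled, as given further on. With either SKOV3 control left out, most of the SKOV3 rises were no longer called. That group then holds 1 array, and the median standard error over all genes in SKOV3 cells went from 0.0397 to 0.0521. With a covariate for the balance between genes of small and of large proteins, described further on, 0 of the 7 were called in either line. That fit called few of all 31325 genes, 7 risen and 21 fallen in MDA-MB-231 and 9 and 33 in SKOV3 cells.

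**Figure D1:**
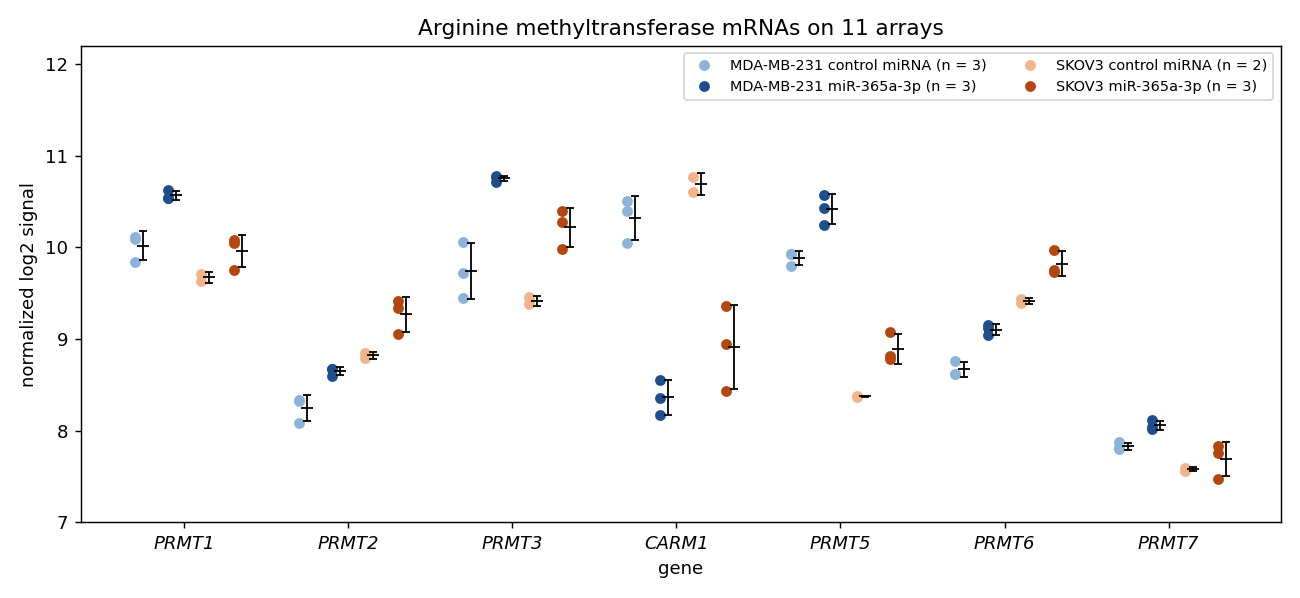
Normalized log2 signal of the 7 genes (x axis) on each of the 11 arrays, by group; points are arrays and the black bars beside them are the group mean ± SD. CARM1 lies at 10.05 or above on all 5 control arrays and at 9.36 or below on all 6 miR-365a-3p arrays, and PRMT3 shows the opposite order in each line.

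CARM1 methylates histone H3 and the coactivators it binds, and serves nuclear receptors as a coactivator. Its signal in MDA-MB-231 cells was 10.40, 10.05 and 10.51 on the control arrays and 8.18, 8.36 and 8.55 with miR-365a-3p. The SKOV3 signals were 10.77 and 10.60 on the controls and 8.44, 9.36 and 8.94 with miR-365a-3p. The groups did not overlap in either line, and the SKOV3 miR-365a-3p arrays were the most spread of the 4 groups (SD 0.46, n = 3), with replicate 2 highest. The change was -1.96 ± 0.22 (SE, adjusted p = 0.000321, limma) in MDA-MB-231 cells, a ratio of 0.258, and -1.78 ± 0.25 (SE, adjusted p = 0.00188) in SKOV3 cells, a ratio of 0.292. An exact two-sided permutation of the treatment within the cell lines, over 200 arrangements, gave p = 0.005, the smallest it can give. CARM1 kept this call under quantile scaling, cyclic loess, median centring and the deposited scale, with changes of -1.96 to -2.19 in MDA-MB-231 cells and -1.78 to -1.84 in SKOV3 cells. With the balance covariate its change was -0.10 and -0.19, and the call ended in both lines. That fit called 21 genes fallen in MDA-MB-231 and 33 in SKOV3 cells, of all 31325.

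PRMT3, a cytosolic enzyme that methylates the ribosomal protein RPS2, rose most of the 7. Its signal in MDA-MB-231 cells was 10.06, 9.45 and 9.72 on the controls and 10.72, 10.78 and 10.77 with miR-365a-3p. On the SKOV3 arrays it was 9.46 and 9.38 on the controls and 10.28, 10.40 and 9.98 with miR-365a-3p. All miR-365a-3p arrays lay above all controls of the same line, and the MDA-MB-231 controls were the widest group (SD 0.30, n = 3). The rise was 1.01 ± 0.15 (SE, adjusted p = 0.00123, limma) or 2.01-fold in MDA-MB-231 and 0.80 ± 0.17 (SE, adjusted p = 0.0127) or 1.74-fold in SKOV3 cells, with an exact permutation p of 0.005. All 4 scalings called it in both lines. With either SKOV3 control left out, which leaves 1 array in that group, the SKOV3 rise was no longer called (0.84 without replicate 1, 0.76 without replicate 2).

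PRMT5 makes most of the cell's symmetric dimethylarginine, on Sm proteins of the spliceosome and on histones. Its signal in MDA-MB-231 cells was 9.93, 9.79 and 9.92 on the controls and 10.24, 10.43 and 10.57 with miR-365a-3p. In SKOV3 cells it was 8.37 and 8.38 on the controls and 9.08, 8.81 and 8.79 with miR-365a-3p. The miR-365a-3p arrays were all above the controls of their line, and every SKOV3 array was below every MDA-MB-231 array. The rise was 0.53 ± 0.10 (SE, adjusted p = 0.00359, limma) in MDA-MB-231 and 0.52 ± 0.11 (SE, adjusted p = 0.0136) in SKOV3 cells, with an exact permutation p of 0.005. The SKOV3 rise was not called on the deposited scale (0.25, adjusted p = 0.128) or after median centring (0.29, adjusted p = 0.0734). Nor was it called with either SKOV3 control left out, which leaves 1 array in that group.

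PRMT6 is a nuclear enzyme that methylates arginine 2 of histone H3, a mark known to oppose methylation of the nearby lysine 4. Its signal in MDA-MB-231 cells was 8.76, 8.62 and 8.62 on the controls and 9.04, 9.15 and 9.12 with miR-365a-3p. On the SKOV3 arrays it was 9.44 and 9.39 on the controls and 9.73, 9.98 and 9.76 with miR-365a-3p. The groups did not overlap within a line, and all SKOV3 arrays lay above all MDA-MB-231 arrays. The rise in this fit was 0.44 (95% confidence interval 0.28 to 0.59, adjusted p = 0.00161, limma) in MDA-MB-231 and 0.41 (0.24 to 0.58, adjusted p = 0.00757) in SKOV3 cells, with an exact permutation p of 0.005. The deposited signals overlapped in MDA-MB-231 cells, with 8.81, 8.78 and 8.76 on the controls and 8.71, 9.05 and 8.95 with miR-365a-3p. There the difference was 0.12 ± 0.09 (SE, adjusted p = 0.417, limma). In SKOV3 cells the deposited signals of 9.60 and 9.47 on the controls and 9.75, 9.97 and 9.82 with miR-365a-3p stayed apart, with a difference of 0.31 ± 0.10 (SE, adjusted p = 0.0635). After median centring the difference was 0.15 (adjusted p = 0.236) in MDA-MB-231 and 0.35 (adjusted p = 0.0403) in SKOV3 cells. Without SKOV3 control replicate 2, which leaves 1 control array, the normalized difference in SKOV3 cells was 0.39 and was no longer called.

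PRMT2, a nuclear receptor coactivator of weak enzymatic activity, also had calls that changed with the scaling. Its signal in MDA-MB-231 cells was 8.09, 8.32 and 8.33 on the controls and 8.68, 8.68 and 8.60 with miR-365a-3p. In SKOV3 cells it was 8.85 and 8.80 on the controls and 9.41, 9.06 and 9.33 with miR-365a-3p. No group overlapped the controls of its line. The rise was 0.40 ± 0.09 (SE, adjusted p = 0.0126, limma) in MDA-MB-231 and 0.44 ± 0.11 (SE, adjusted p = 0.0241) in SKOV3 cells, with an exact permutation p of 0.01. On the deposited scale it was 0.02 ± 0.12 (adjusted p = 0.929) and 0.25 ± 0.13 (adjusted p = 0.262), and median centring gave 0.06 and 0.29, also not called. Cyclic loess gave 0.38 in SKOV3 cells (adjusted p = 0.0585). In SKOV3 cells the call was also lost without miR-365a-3p replicate 1 (adjusted p = 0.061) or 3 (adjusted p = 0.0672). It was lost too without either control replicate, which leaves 1 array in that group.

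PRMT1, the most active type I enzyme in most cells, had signals of 9.84, 10.10 and 10.12 on the MDA-MB-231 controls and 10.54, 10.62 and 10.53 with miR-365a-3p. In SKOV3 cells the signals were 9.72 and 9.63 on the controls and 10.08, 9.76 and 10.05 with miR-365a-3p. The groups did not overlap in either line, but SKOV3 miR-365a-3p replicate 2 lay close to the controls. The rise in MDA-MB-231 cells was 0.55 ± 0.10 (SE, adjusted p = 0.00314, limma), called under all 4 scalings. In SKOV3 cells the difference of 0.29 (95% confidence interval 0.04 to 0.53, adjusted p = 0.135) was not called, and without miR-365a-3p replicate 2 it was 0.39 (adjusted p = 0.0233). The exact permutation p over both lines was 0.01.

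PRMT7, the monomethylating enzyme, gave a signal not far above the array median of 7.38. In MDA-MB-231 cells it was 7.82, 7.80 and 7.87 on the controls and 8.12, 8.01 and 8.04 with miR-365a-3p. The SKOV3 signals were 7.59 and 7.56 on the controls and 7.83, 7.48 and 7.75 with miR-365a-3p, and these groups overlapped. The difference was 0.23 (95% confidence interval 0.04 to 0.41, adjusted p = 0.0715, limma) in MDA-MB-231 and 0.11 (-0.09 to 0.31, adjusted p = 0.58) in SKOV3 cells. It turned negative on the deposited scale (-0.11 and -0.09) and after median centring (-0.08 and -0.05), so that no direction is given for PRMT7. Without SKOV3 miR-365a-3p replicate 2, its lowest SKOV3 array, PRMT7 passed in both lines on the normalized scale (adjusted p = 0.00257 in MDA-MB-231 and, with a difference of 0.22, 0.0145 in SKOV3 cells), and without replicate 1 of that group it passed in MDA-MB-231 cells (adjusted p = 0.0352). The exact permutation p was 0.045 in the direction of the normalized values.

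**Figure D2:**
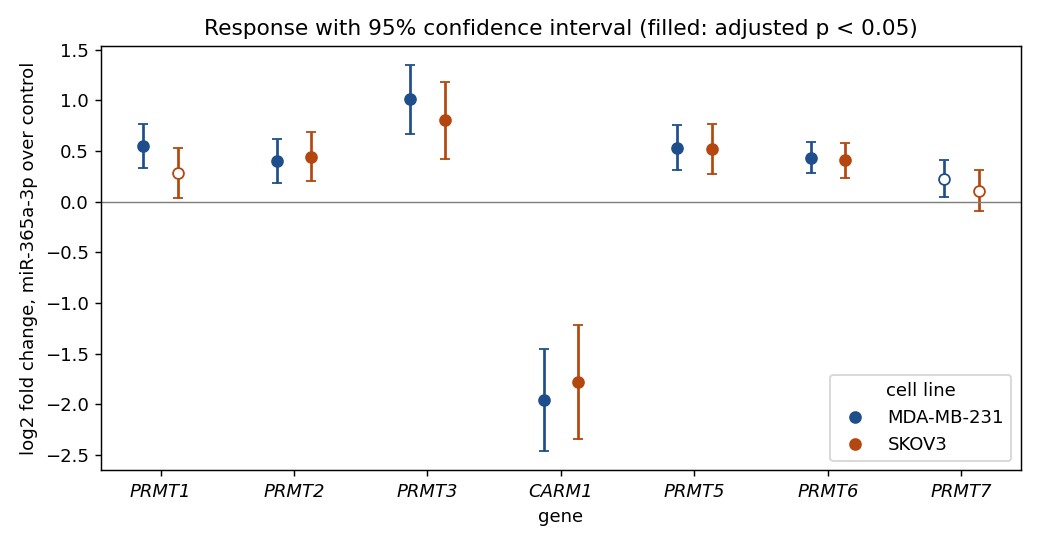
Log2 fold change of miR-365a-3p over control (y axis) with its 95% confidence interval for each of the 7 genes in MDA-MB-231 and SKOV3 cells; filled points passed an adjusted p of 0.05. CARM1 alone lies below 0, at -1.96 and -1.78, and the estimates of the 2 lines differ by at most 0.26.

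Whether the response differed between the cell lines was tested by the difference of the 2 changes. Of the 7 genes 0 passed (limma, adjusted p from 0.528 for PRMT1 to 0.985 for PRMT5), and 0 had an unadjusted p under 0.05, where 2.54% of all genes passed. For PRMT6 the SKOV3 response minus the MDA-MB-231 response was -0.03, with a 95% confidence interval of -0.26 to 0.20. For CARM1 the interval reached from -0.58 to 0.93, and for PRMT1 from -0.60 to 0.07.

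Without miR-365a-3p, 3 of the genes differed between the lines. PRMT5 was lower in SKOV3 than in MDA-MB-231 controls, with a difference of -1.51 ± 0.11 (SE, adjusted p = 2.87e-05, limma), a ratio of 0.351. PRMT6 was higher in SKOV3 controls by 0.75 ± 0.08 (SE, adjusted p = 0.000195) and PRMT2 by 0.58 ± 0.11 (SE, adjusted p = 0.0054). This makes 2 of 7 genes higher and 1 lower, where 8.34% of all genes were higher and 7.76% lower in SKOV3 controls. The other 4 genes did not pass, with differences between -0.34 for PRMT1 and 0.37 for CARM1. For PRMT5 and PRMT6 the gap between lines was larger in size than the response to miR-365a-3p within either line, a comparison given without a test. Cell line and any batch of the arrays cannot be told apart here.

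PRMT6 was then set against its family by response, each gene as its change over the mean of its own control arrays in the same line. The PRMT6 change was 0.44 in MDA-MB-231 cells, where the median change of the other 6 genes was 0.47. In SKOV3 cells it was 0.41, where that median was 0.36. In each line 3 of the other genes had a larger change and 3 a smaller one. PRMT3 and PRMT5 were above PRMT6 in both lines, with PRMT1 in MDA-MB-231 and PRMT2 in SKOV3 cells. By array, the PRMT6 change minus the median change of the others was -0.02, -0.0049 and 0.01 with miR-365a-3p in MDA-MB-231 cells and -0.18, 0.40 and -0.05 in SKOV3 cells. The MDA-MB-231 values lay within the range of the controls there, -0.11 to 0.08, and SKOV3 replicate 2 stood above the other arrays. Against the mean change of the others, which holds the fall of CARM1, PRMT6 was higher by 0.31 and 0.35. These are descriptions and carry no test, since the genes were put together with results known.

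**Figure D3:**
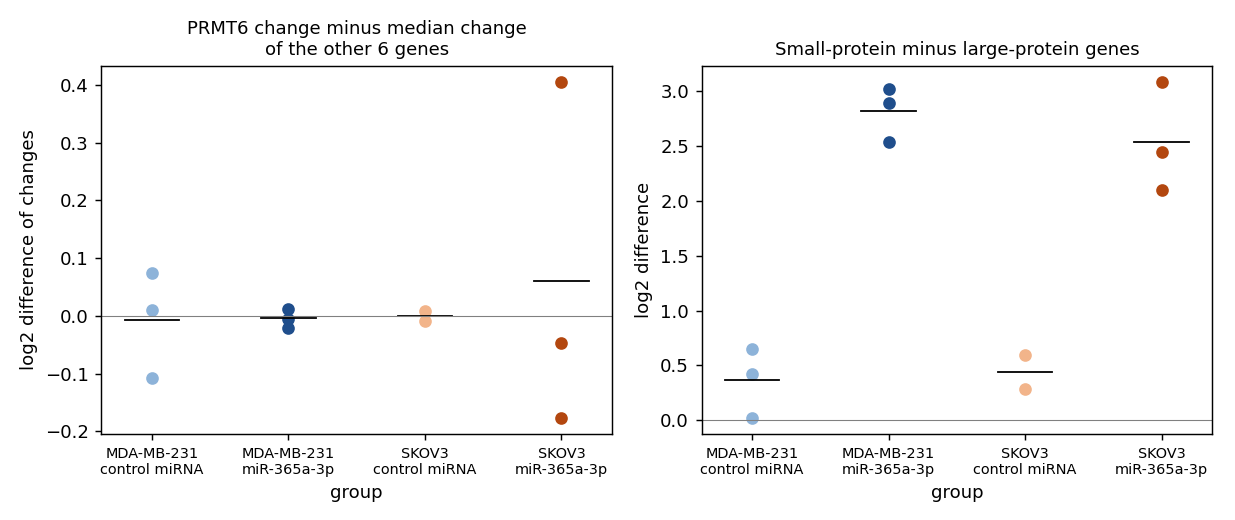
Left, the PRMT6 change minus the median change of the other 6 genes on each array (log2 difference of changes, each gene against the mean of its own controls in the line) by group, with the group mean as a line; right, the difference between genes of small and of large proteins on the same arrays. The left values lie between -0.18 and 0.40 with miR-365a-3p and do not separate the treatments, and the right values do, at 0.65 and 2.09.

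The genes closest to PRMT6 across all 11 arrays, among 15661 genes of above-median signal, were SPRYD3 (Pearson r = 0.992), FAM120AOS (0.991), THOC7 (0.985), TMEM50B (0.985) and GALNT1 (0.984). The arrays form 4 groups, and the r is given as a description of how these genes follow the group means. The 5 were picked by r over the same arrays on which normalized PRMT6 rose. Their own rise therefore largely follows from that choice and is no separate result. All 5 rose with miR-365a-3p in both lines, by 0.48 for GALNT1 to 0.91 for TMEM50B in MDA-MB-231 cells and by 0.51 for GALNT1 to 0.85 for TMEM50B in SKOV3 cells. Within the family, PRMT2 followed PRMT6 with r = 0.913 and came 463rd among these genes. The r of the other 5 members ran from -0.65 for PRMT5 to 0.16 for PRMT3.

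The deposited arrays do not share a distribution, and their scaling changes some of these calls. The 75th percentile of the deposited values ranged in MDA-MB-231 cells from 7.56 to 7.65 on the miR-365a-3p arrays and from 7.86 to 7.93 on the controls, and in SKOV3 cells from 7.67 to 7.80 and from 7.98 to 8.04. Quantile scaling removes this gap. For PRMT6 in MDA-MB-231 cells the mean was 8.67 normalized and 8.78 deposited on the controls, and 9.10 and 8.90 with miR-365a-3p. Over all genes, falls made up 44.8% of the calls in MDA-MB-231 and 49.5% in SKOV3 cells after quantile scaling, 59.1% and 67.7% after median centring, and 71.2% and 78.6% on the deposited values. Of the 14 responses of the 7 genes in the 2 lines, 7 kept direction and call on the deposited scale and 8 after median centring, against 13 with cyclic loess within each line.

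**Figure D4:**
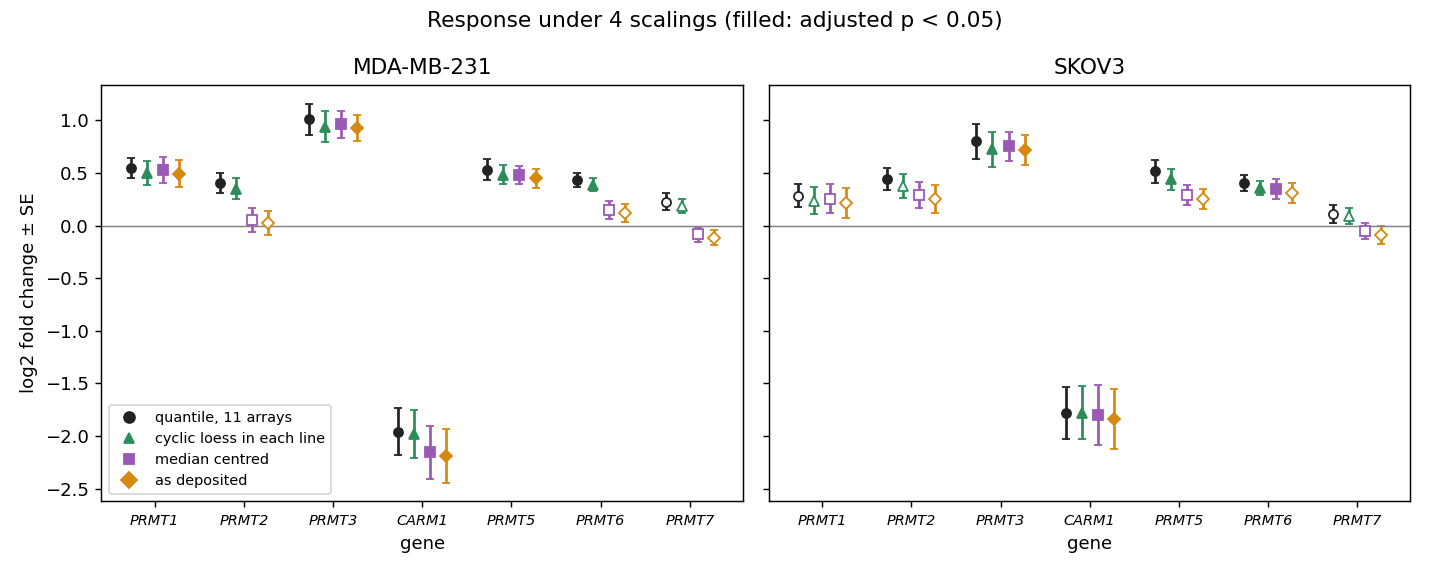
Log2 fold change ± SE (y axis) of each gene in MDA-MB-231 (left) and SKOV3 cells (right) under 4 scalings of the arrays; filled symbols passed an adjusted p of 0.05. CARM1 and PRMT3 are filled throughout, PRMT6 in MDA-MB-231 cells goes from 0.44 to 0.12, and PRMT7 crosses 0.

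A second property of the arrays moved with the treatment. The median signal of 178 genes of small proteins (ribosomal proteins and subunits of respiratory complex I) minus that of 13 genes of large ones (myosin and dynein heavy chains, laminins and collagens) was 0.02 to 0.65 on the MDA-MB-231 controls and 2.54 to 3.01 with miR-365a-3p. In SKOV3 cells it was 0.28 and 0.60 on the controls and 2.09 to 3.08 with miR-365a-3p. With this balance as a covariate, 0 of the 7 genes were called in either line (limma), and PRMT6 in both lines and PRMT3 in MDA-MB-231 cells had an unadjusted p under 0.05. PRMT6 then had a difference of 0.74 ± 0.21 (SE, adjusted p = 0.358) in MDA-MB-231 and 0.67 ± 0.19 (SE, adjusted p = 0.295) in SKOV3 cells, PRMT3 of 1.23 and 0.99, and CARM1 of -0.10 and -0.19. Since treatment and balance nearly overlap, standard errors grew in that fit, from a median of 0.0355 over all genes to 0.117 in MDA-MB-231 cells. Of all 31325 genes it called 7 risen and 21 fallen in MDA-MB-231 and 9 and 33 in SKOV3 cells.

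Partners, substrates and readers of the enzymes were counted in the same fit. The lists were drawn up by function, but with earlier results of these data known, so that the counts are descriptions without a set test. These counts are to be read against 14.4% of all genes risen and 11.7% fallen in MDA-MB-231 cells, and 7.25% and 7.11% in SKOV3 cells. The median of the normalized signals was 7.38 on every array, and for a gene near or below it the size of a change is not well measured. Of the other family members with a signal, PRMT10 (the older symbol of PRMT9, which also makes symmetric dimethylarginine) rose by 0.64 (adjusted p = 0.000139, limma) in MDA-MB-231 and 0.51 (adjusted p = 0.00162) in SKOV3 cells. FBXO11, once listed as an arginine methyltransferase and known as a ubiquitin ligase adaptor, fell by 0.82 and 0.88 in the 2 lines. PRMT8, a brain enzyme, had a mean between 7.36 and 7.38 in all 4 groups, close to that array median, and was not called.

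Of 7 coactivators or cofactors that work with CARM1 and PRMT1, 5 fell and 0 rose in each line, where 11.7% of all genes fell in MDA-MB-231 and 7.11% in SKOV3 cells. BTG1, a binding partner of PRMT1, fell by 1.84 in MDA-MB-231 and by 1.49 in SKOV3 cells. NCOA3, a nuclear receptor coactivator that recruits CARM1, fell by 0.63 and 0.87, and NCOA1 by 0.36 and 0.60. The acetyltransferases CREBBP and EP300, both substrates of CARM1, fell by 0.49 and 0.17 in MDA-MB-231 and by 1.10 and 0.47 in SKOV3 cells. BTG2 and NCOA2 changed by -0.04 to -0.02 and were not called. NCOA2 lay between 7.24 and 7.36 on all arrays, below the array median, so that its change is not well measured. The list's median was -0.36 in MDA-MB-231 and -0.60 in SKOV3 cells. Across the 4 scalings 4 to 5 of the 7 fell in MDA-MB-231 and 5 to 6 in SKOV3 cells, and the CREBBP fall was not called in MDA-MB-231 cells with cyclic loess. With miR-365a-3p the mean signal of EP300 was 7.32 and 7.30 in the 2 lines, and that of NCOA1 and CREBBP in MDA-MB-231 cells 7.35 and 7.37, all below the array median, so that the sizes of these falls depend on the controls. The signal of BTG1, a gene of the transcriptional antiproliferative BTG family, thus changed most of the 7.

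Of the 4 measured partners of PRMT5, CLNS1A, which brings Sm proteins to the enzyme, rose by 0.73 and 0.65. The SKOV3 rise was not called with cyclic loess (0.54, adjusted p = 0.0625, limma). WDR77, its obligate partner in the methylosome, was named after its values were seen. It fell by 0.33 (adjusted p = 0.0118, limma) in MDA-MB-231 cells and had a difference of -0.10 (adjusted p = 0.595) in SKOV3 cells, where it was called fallen on the deposited scale and after median centring. No other partner was called in the normalized values. Of the 4 Sm or LSm proteins that PRMT5 methylates, 2 rose in both lines, SNRPD1 by 1.67 and 1.08 and SNRPB by 0.28 and 0.62, and SNRPD3, named after its values were seen, fell by 0.46 in MDA-MB-231 cells (adjusted p = 0.0394, limma). With cyclic loess SNRPB was not called in MDA-MB-231 cells (0.20, adjusted p = 0.186, limma).

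Of the 11 measured RNA-binding substrates with glycine- and arginine-rich stretches, 6 fell and 1 rose in MDA-MB-231 cells, while 2 fell and 0 rose in SKOV3 cells. KHDRBS1, known as Sam68 and methylated by PRMT1, fell by 1.63 and 1.23. The 1 called risen, EWSR1, had a difference of 0.18 in MDA-MB-231 cells and was named after its values were seen. It was not called under any of the other 3 scalings and was negative on the deposited scale (-0.12) and after median centring (-0.08), so that no direction is given for it. On the deposited scale 9 of the 11 fell in MDA-MB-231 and 5 in SKOV3 cells, where 17.9% and 14% of all genes fell. Of the 4 Tudor domain proteins, which bind methylated arginine or are related to such readers, TDRD3 rose by 0.46 and 0.32 and SMNDC1 fell by 1.01 and 1.06. The survival motor neuron gene SMN1, whose near-identical copy SMN2 the probe may also detect, rose by 0.91, and the nuclease SND1 fell by 0.33, both called in MDA-MB-231 cells alone and named after their values were seen. The TDRD3 rise was not called in SKOV3 cells on the deposited scale or after median centring, nor the SMN1 rise on the deposited scale.

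Of the 7 genes of complexes that methylate lysine 4 of histone H3, the mark that PRMT6 opposes, 3 fell and 1 rose in MDA-MB-231, while 2 fell and 0 rose in SKOV3 cells. MLL and MLL3, catalytic subunits now named KMT2A and KMT2C, fell in both, MLL by 0.27 and 0.38 and MLL3 by 0.13 and 0.10. Their means with miR-365a-3p, 7.32 and 7.34 for MLL and 7.33 and 7.35 for MLL3, lay below the array median, so that the sizes of these falls are not well measured. The shared subunits DPY30, which rose by 0.80, and RBBP5, which fell by 0.86, were called in MDA-MB-231 cells and named after their values were seen. Of 5 genes known as targets of repression by PRMT6, 3 fell and 1 rose in MDA-MB-231, while 1 fell and 1 rose in SKOV3 cells. THBS1, an inhibitor of angiogenesis, fell by 2.44 and 1.28, and in MDA-MB-231 cells CDKN1A, named after its values were seen, fell by 0.65. The cell cycle inhibitor CDKN1B rose by 0.92 and 0.45. The CDKN1B rise was not called in SKOV3 cells under any of the other 3 scalings. Of 5 genes of the methyl donor cycle, AHCYL1, a relative of the hydrolase that clears S-adenosylhomocysteine, fell by 1.70 and 1.18. MAT2B, a subunit of the enzyme that makes S-adenosylmethionine, was named after its values were seen and rose by 0.54 (adjusted p = 0.00272, limma) in MDA-MB-231 cells, with a difference of 0.34 (adjusted p = 0.066) in SKOV3 cells. In MDA-MB-231 cells most lists therefore held genes called both ways, with EWSR1 counted as risen among the substrates. In SKOV3 cells fewer of all genes were called, and the PRMT5 partners and the methyl donor cycle held 1 call each. Such lists can show only 1 direction, so that the lines are not compared in this. Whether the balance of small and large proteins had a part in these list counts was not tested.

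**Figure D5:**
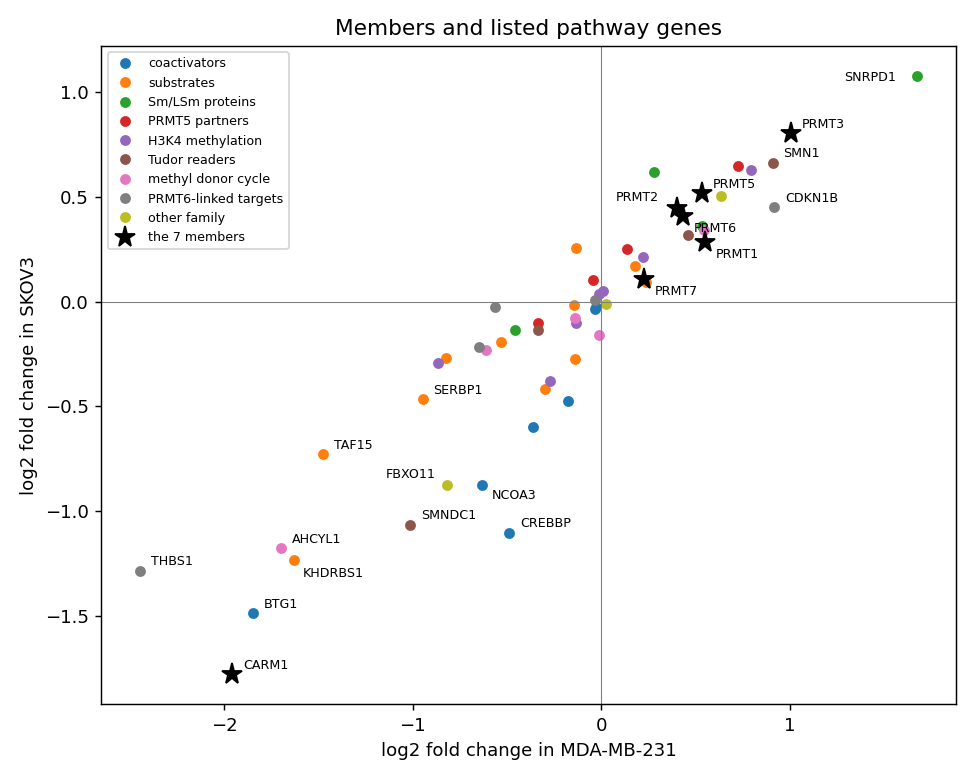
Log2 fold change with miR-365a-3p in MDA-MB-231 (x axis) and SKOV3 cells (y axis) for the 7 genes (stars) and the listed partners, substrates and readers (circles, coloured by list); genes with larger changes carry their names. CARM1 lies at the lower left with BTG1 and KHDRBS1, and the other 6 members lie at the upper right.

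The promoter windows of PRMT6 and CARM1, the genes on either side of 0, are shown for context from RefSeq on GRCh38.p14, each 300 bases on the + strand from 250 before to 50 after the annotated start. They lie at chr1:107056424-107056723 and, for the first of 2 annotated CARM1 starts, at chr19:10871303-10871602. Capitals mark GC boxes (GGGCGG on either strand).
PRMT6: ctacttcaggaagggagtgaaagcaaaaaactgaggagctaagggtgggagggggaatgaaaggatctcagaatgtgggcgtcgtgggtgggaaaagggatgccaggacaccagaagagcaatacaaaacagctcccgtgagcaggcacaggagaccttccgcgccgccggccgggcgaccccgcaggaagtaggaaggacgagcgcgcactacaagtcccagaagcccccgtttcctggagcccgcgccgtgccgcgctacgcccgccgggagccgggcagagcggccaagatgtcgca
CARM1: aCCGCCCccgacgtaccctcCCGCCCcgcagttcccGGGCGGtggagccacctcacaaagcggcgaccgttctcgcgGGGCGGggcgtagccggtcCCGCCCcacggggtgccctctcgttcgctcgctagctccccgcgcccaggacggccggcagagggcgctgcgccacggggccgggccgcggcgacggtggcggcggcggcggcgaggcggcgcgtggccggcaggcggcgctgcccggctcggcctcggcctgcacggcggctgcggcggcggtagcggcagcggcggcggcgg
The CARM1 window holds 5 GC boxes and 82.3% G and C, and the PRMT6 window 0 GC boxes and 63% G and C. The window at the second annotated CARM1 start holds 2 GC boxes and 69% G and C. That of PRMT5, which rose, also holds 0, and those of the other 4 genes hold 1 to 3. Of 35116 human promoter windows of this length, 45% hold at least 1. The arrays measured mRNA and no binding at these windows.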

How the data were processed

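Gene expression was measured on 11 Illumina HumanHT-12 arrays of biotin-labelled cRNA, in 4 groups of cell line and miRNA taken from the sample labels. The authors applied quantile normalization in lumi. What they deposited is a table of log2 values, 1 for each array and each of 31325 gene symbols, with no probe names. How probes were combined, and any background correction, are not given in the sources used here. Since the number of arrays limits the precision, every value is given with its spread.

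The deposited columns did not share a distribution and were quantile normalized in limma 3.58.1 (R 4.3.3). Group means were fitted to all genes, moderated with eBayes and adjusted by Benjamini-Hochberg over all 31325 genes at 0.05, and the fit was tested on simulated data. Single genes were also tested by exact two-sided permutation within cell lines. All columns of values were used. The 7 genes and the lists were chosen with earlier results of these data known. The other genes named are list genes called the same way in both lines, ordered by size and at most 20, and the 5 genes with the highest r with PRMT6. For the balance of small and large proteins, symbol patterns (RPL, RPS, MRPL, MRPS, NDUF against MYH, DYNC, LAM, COL) took the place of protein lengths, with mean signals above 8. PRMT6 was compared with the other 6 genes by changes over each gene's own controls, in place of the signal difference first planned, since signals of different probes are not comparable. All 7 symbols matched the RefSeq gene table of GRCh38.p14, as did the older symbols PRMT10, MLL and MLL3 through their synonyms. Alternatives were other scalings, each line alone, a replicate block, brighter genes, an intensity trend, array weights, stricter thresholds, the balance as a covariate and each array left out. Some list genes that the counts include are not reported here by name. Figures were drawn with matplotlib.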

Additional observations from a re-analysis of the deposited data

Results flagged for a closer look

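The response differed between the cell lines for 3 of the genes named, by the difference of the 2 responses in limma over all genes, and for 0 of the 7 methyltransferase genes. Of all 31325 genes 796 passed, or 2.54%. The 3 are given because they passed, and their number is no result about the lists. THBS1, listed as a gene that PRMT6 represses, fell less in SKOV3 than in MDA-MB-231 cells, with a difference of 1.16 (adjusted p = 0.00132). Its control signal was lower in SKOV3 cells, with a difference of -2.29 (adjusted p = 5.46e-07, limma). With miR-365a-3p its SKOV3 signals were 8.02 to 8.04, so that a smaller fall there cannot be told apart from a lower starting signal. EP300, a coactivator, had a more negative change in SKOV3 cells, with a difference of -0.30 (adjusted p = 0.0228). With miR-365a-3p its mean was 7.32 and 7.30 in the 2 lines, below the array median of 7.38, while its control signal was higher in SKOV3 cells by 0.28, so that a larger fall in SKOV3 cells cannot be told apart from a higher starting signal. PAX8, used to check the cell lines, fell in SKOV3 cells, with a difference of -0.67 (adjusted p = 9.61e-05), and its signal in MDA-MB-231 controls was at the dim end.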

How the results depend on the processing

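Values are log2 changes in MDA-MB-231 and SKOV3 cells. PRMT6 changed by 0.12 and 0.31 on the deposited scale and by 0.74 and 0.67 with the balance covariate, not called, and by 0.15 in MDA-MB-231 cells after median centring. Its SKOV3 rise of 0.41 was not called with each line fitted alone or with an intensity trend, and neither it nor the MDA-MB-231 rise of 0.44 reached 0.5. The labels do not say whether arrays of the same replicate number belong together. Same-numbered arrays correlated between -0.12 and 0.23 in their deviations, which with so few arrays per group cannot settle pairing. With a replicate block, PRMT6 rose by 0.44 in SKOV3 cells (adjusted p = 0.0643, limma), 1 member was called risen there, and the PRMT5 and PRMT6 differences between lines turned to 0.0359 and 0.0056. Members called risen in MDA-MB-231 cells were 3 on the deposited scale, after centring and at 0.5 or more, and 0 with the covariate. In SKOV3 cells they were 1 on the deposited scale, with the line alone and at an adjusted p under 0.01, 2 after centring and at 0.5 or more, and 0 with the covariate, which also left 0 fallen in either line. Without SKOV3 miR-365a-3p replicate 2, 6 members were called risen in SKOV3 cells, where 2660 of all genes rose. Most of these calls ended without either SKOV3 control, which leaves 1 array in that group. With 1 array left out the PRMT6 rise in SKOV3 cells ranged from 0.33 to 0.45. PRMT7 turned negative on the deposited scale (-0.11, -0.0886), after centring (-0.0816, -0.0511) and with the covariate (-0.23, -0.28), as did PRMT1 in SKOV3 (-0.0639) and PRMT2 in MDA-MB-231 cells (-0.10) with the covariate. The difference between lines changed sign for PRMT6 (0.19 deposited, 0.20 centred), PRMT7 (0.0254 deposited, 0.0306 centred) and CARM1 (-0.0846 with the covariate). With 1 array left out it ranged from -0.0323 to 0.15 for PRMT2, -0.0427 to 0.42 for CARM1, -0.11 to 0.0608 for PRMT5 and -0.10 to 0.0177 for PRMT6. Over all genes, 4511 rose in MDA-MB-231 and 2270 in SKOV3 cells, against 2275 and 1201 on the deposited scale. After centring 3370 and 1729 of all genes rose, and at 0.5 or more 2279 and 1224. In SKOV3 cells 1278 of all genes rose with the line alone, 954 at an adjusted p under 0.01 and 1583 with a replicate block. With the covariate 7 and 9 rose, and 21 and 33 fell. The covariate's larger standard errors come with its near overlap with the treatment, and the cause of the other changes was not tested. The change of PRMT6 minus the median signal of the other 6 genes (0.69 and 0.33) compares probes and depends on which lie at the median; against their own median change, chosen after seeing the data, it was -0.03 and 0.04. PRMT7 lay not far above the array median. PRMT8 in all groups, and EP300, MLL and MLL3 with miR-365a-3p, lay near or below it, where the size of a change is not well measured.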

Other observations

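Enzymes that act on arginine in the other direction were measured too. PADI2 and PADI4 turn arginine into citrulline, and JMJD6 has been described as an arginine demethylase. None of the 3 was called in either line (limma, though PADI4 in MDA-MB-231 cells had an unadjusted p under 0.05), with differences of -0.11 for PADI4 to 0.05 for JMJD6 in MDA-MB-231 and 0.0041 for PADI2 to 0.04 for JMJD6 in SKOV3 cells. On the deposited scale 1 of the 3 was called fallen in MDA-MB-231 cells. PADI2 lay between 7.33 and 7.42 on all arrays and PADI4 between 7.22 and 7.33 on the SKOV3 arrays. These signals are near or below the array median of 7.38, so that the missing calls say little there.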
